A study of Mus musculus with 6 samples.

Results

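Glycolysis enzymes and hypoxia-induced genes were followed in RNA-sequencing libraries of mouse LSK cells with and without a hairpin against Cxxc5. LSK cells lack the surface markers of mature blood lineages and carry Sca-1 and Kit, a sort that keeps blood stem cells together with early progenitors of bone marrow. The members were taken from a list of 35 names, of which 34 matched 1 gene each among the 49671 gene identifiers of the count table. The remaining name, Mxd1-none, matched no gene. The 34 genes comprise 16 core enzymes of glycolysis and 18 hypoxia genes. The hypoxia genes are 4 transporters, 3 regulators of glycolytic flux, 3 genes of oxygen sensing and 8 other hypoxia-induced genes. All 34 passed the filter on low counts in both fits.

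Both groups came from BALB/c mice, whose bone marrow had been enriched for stem and progenitor cells and then infected with a retrovirus. The virus carried a hairpin against Cxxc5 (shCxxc5) or a hairpin with no target in the mouse (shCtrl). Infected cells were sorted as GFP-positive LSK cells and pooled over several animals before RNA was taken. Each group had 3 libraries, numbered 2, 3 and 4. The number of different hairpins, the age and the sex of the animals are not given in the labels. Whether a number stands for an infection of its own is not stated either, so a p-value here reflects only how far the libraries scatter, and that scatter may be technical. In bulk RNA, fewer cells of a type and less RNA per cell cannot be told apart.

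Glycolysis splits glucose into pyruvate, which lactate dehydrogenase can turn into lactate when the mitochondria do not take it up. Under low oxygen the prolyl hydroxylases of the Egln family no longer mark the HIF-1 alpha protein for destruction, and HIF then switches on glucose transporters, most glycolytic enzymes, Pdk1, Vegfa and other genes. Blood stem cells in marrow are known for relying on glycolysis and for keeping HIF-1 alpha protein.

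Total counts ran from 15002414 to 27754019 per library. Cxxc5, the targeted gene, stood at 82.2, 59.9 and 57.9 CPM (counts scaled to library size with the TMM factors) in shCtrl replicates 2, 3 and 4, and at 6.74, 17.4 and 17.9 CPM in shCxxc5. Its groups did not overlap, and its log2 fold change in replicates 3 and 4 was -1.74 (SE 0.07, edgeR adjusted p = 1.45e-16). The 2 libraries numbered 2 stood apart from the other 4. Ly6a, the Sca-1 gene, was at 33.1 to 46.4 CPM in them and at 703 to 804 CPM elsewhere, while Kit, the other sort marker, lay between 82.4 and 110.4 CPM in all 6. The summed level of 10 megakaryocyte markers was 7002 and 1677 CPM in shCtrl and shCxxc5 replicate 2, and 346 to 533 CPM in the others. The sum of 10 interferon response markers was 282 and 313 CPM in replicate 2 and 1972 to 2054 CPM in the other 4 libraries. That of 10 granulocyte and monocyte markers was 6132 CPM in shCxxc5 replicate 2 and 1011 to 1615 CPM in the others. Results are therefore given for all 6 libraries and for replicates 3 and 4 alone, and the choice of the second comparison was made with this structure known. The B cell and the T and NK cell markers summed to at most 33.2 and 2.70 CPM, with Cd3e at 0 in every library.

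The members split by role in replicates 3 and 4. Of the 16 core enzymes, 6 rose, 1 fell and 9 did not pass the test, whereas of the 18 hypoxia genes 2 rose, 10 fell and 6 did not pass (edgeR, Benjamini-Hochberg adjusted p under 0.05). The steps that rose lie from triose phosphate isomerase to lactate dehydrogenase, with Pgam1 and Ldha in the lead. The lactate carrier Slc16a1 rose with them. Of the 6 enzymes, DESeq2 with the replicate number as a block kept Tpi1 and Ldha and lost Gapdh, Pgam1, Eno1 and Pkm. Gapdh, Eno1 and Pgam1 also share much of their sequence with copies elsewhere in the genome, which leaves their counts uncertain. Vegfa fell 1.81-fold, Ddit4 1.56-fold, and the glucose transporters Slc2a1 and Slc2a3, Hif1a, Ero1l and P4ha1 fell as well. Together 19 of 34 members were called, 8 higher and 11 lower. Over all 14193 genes tested 20.0% were called, 11% higher and 9.0% lower. With library totals alone as the scaling, the split over all genes was 1120 higher and 1606 lower in place of 1555 higher and 1278 lower, and that of the members was 8 higher and 13 lower. The spread between the libraries of a group here was small, with a common biological coefficient of variation of 0.0294.

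**Figure D1:**
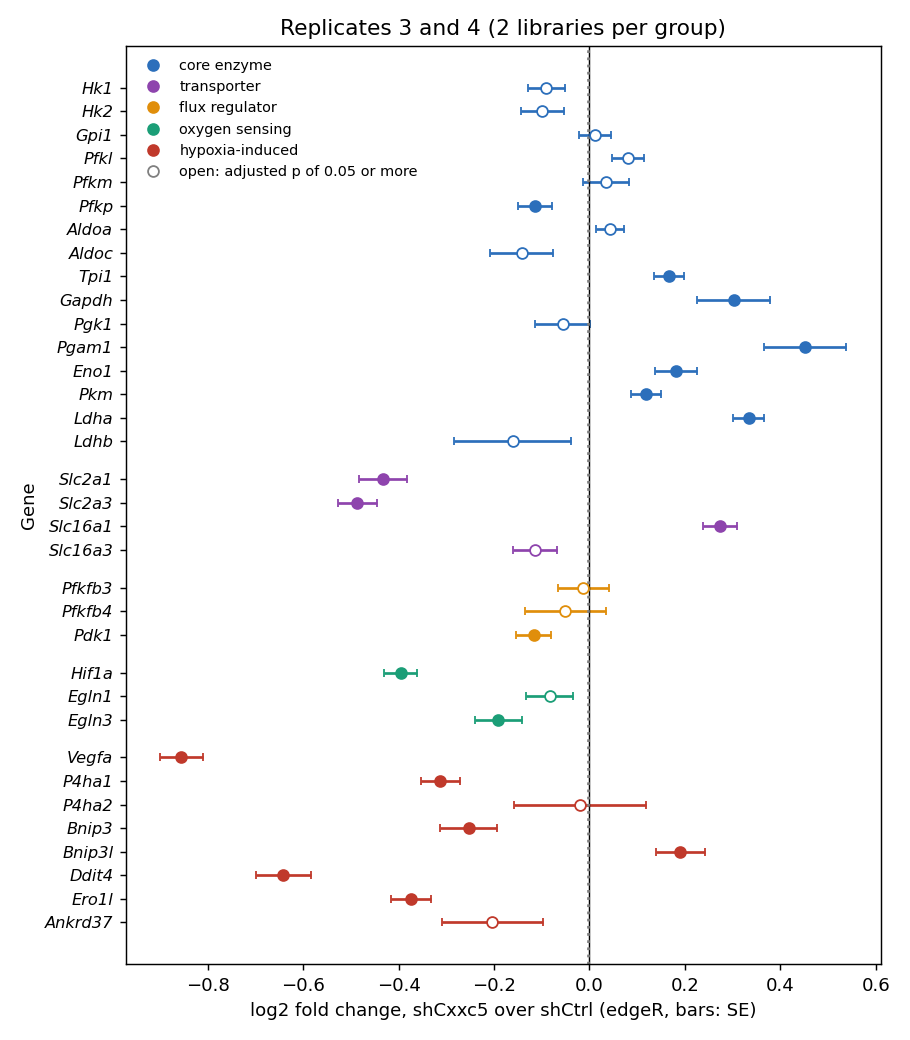
Log2 fold change (shCxxc5 over shCtrl, x axis) of each of the 34 genes (y axis) in replicates 3 and 4, from edgeR, with bars for the SE; filled points passed an adjusted p of 0.05, colours give the role, and the dotted line is the median of all genes (-0.0030). The filled points of the core enzymes lie to the right of 0 except Pfkp, and those of the hypoxia genes lie to the left except Slc16a1 and Bnip3l.

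Over all 6 libraries edgeR called 0 of the 34 members and 0% of 14637 genes, with 4 members (Slc16a1, Egln3, Vegfa and Ddit4) and 3.93% of all genes at an unadjusted p under 0.05. Limma-voom also called 0 members, and DESeq2 called 1, Ddit4 (adjusted p = 0.0357), and 0.131% of genes. With the replicate number as a block, edgeR again called 0 members and 0% of genes. DESeq2 with the block called 4, all lower, and 1.19% of genes. These were Vegfa (log2 fold change -0.76, adjusted p = 1.18e-05), Ddit4 (-0.61, 0.00255), Slc2a3 (-0.80, 0.00789) and Slc2a1 (-0.47, 0.0140). With replicate 2 included, the biological coefficient of variation was 0.312.

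The promoter windows of 5 chosen members are shown because HIF is known to bind the letters ACGTG or GCGTG. The choice does not follow the order of the changes. Pgam1 rose the most and Gapdh rose more than Slc16a1, and neither is printed. The windows are from RefSeq (GRCm38.p6), 5′ to 3′ on the gene's own strand, and the stretches printed hold no base of an annotated exon of the gene (GENCODE M21). The Ldha stretch lies before the starts of its annotated transcripts except 1 that starts further upstream, and is in an intron of that one. Capitals mark ACGTG or GCGTG on either strand, and the palindrome CACGTG counts on both strands. Vegfa (chr17:46032378-46032627, minus strand) and Ddit4 (chr10:59951835-59952020, minus strand) had the largest falls, Slc2a1 (chr4:119108495-119108710, plus strand) encodes the glucose transporter GLUT1, and Ldha (chr7:46845554-46845803, plus strand) and Slc16a1 (chr3:104638414-104638663, plus strand) rose.
Vegfa: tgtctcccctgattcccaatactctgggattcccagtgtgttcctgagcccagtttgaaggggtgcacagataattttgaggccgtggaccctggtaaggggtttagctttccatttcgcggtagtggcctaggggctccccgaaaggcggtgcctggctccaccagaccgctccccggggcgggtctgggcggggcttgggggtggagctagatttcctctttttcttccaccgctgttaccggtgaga
Ddit4: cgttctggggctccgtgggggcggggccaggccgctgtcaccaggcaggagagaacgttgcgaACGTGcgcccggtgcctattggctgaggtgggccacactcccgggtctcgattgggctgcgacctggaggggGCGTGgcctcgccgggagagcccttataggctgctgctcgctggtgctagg
Slc2a1: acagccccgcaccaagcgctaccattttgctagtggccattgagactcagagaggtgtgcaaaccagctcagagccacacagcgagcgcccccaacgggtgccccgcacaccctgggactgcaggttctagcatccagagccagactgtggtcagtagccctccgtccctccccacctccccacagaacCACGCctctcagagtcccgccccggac
Ldha: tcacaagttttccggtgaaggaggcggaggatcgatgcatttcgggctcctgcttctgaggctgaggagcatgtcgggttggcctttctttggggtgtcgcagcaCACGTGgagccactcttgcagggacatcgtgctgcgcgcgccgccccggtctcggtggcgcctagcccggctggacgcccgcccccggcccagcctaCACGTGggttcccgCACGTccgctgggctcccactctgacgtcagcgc
Slc16a1: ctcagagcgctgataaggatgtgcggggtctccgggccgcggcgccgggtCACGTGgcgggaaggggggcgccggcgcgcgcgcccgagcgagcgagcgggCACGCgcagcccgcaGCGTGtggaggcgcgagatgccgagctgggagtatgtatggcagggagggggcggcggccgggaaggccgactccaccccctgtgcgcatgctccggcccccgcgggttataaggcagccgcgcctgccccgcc
The Vegfa stretch held 0 such matches, Slc2a1 1, Ddit4 2, Slc16a1 4 and Ldha 5. Over the whole RefSeq windows (250 bases before to 50 after a start), 11 of 16 core enzymes and 14 of the 15 hypoxia genes with a window held at least 1 match, and so did 43.8% of all 32851 windows. Of the members that rose, 5 of 7 with a window held a match, and of those that fell 8 of 9. Among called members not printed, the whole windows of Gapdh, Pgam1, Eno1, Tpi1 and Pkm, which rose, held 3, 3, 2, 0 and 0. Those of Bnip3, Pfkp, Hif1a, P4ha1, Pdk1 and Egln3, which fell, held 5, 4, 3, 3, 2 and 1. The printed stretches therefore do not stand for the members that rose or fell. A match is a description of letters, and its absence says only that these letters are not in this window. TGATGNAA, a pattern known for ATF4, on either strand, was in 0 of the member windows and in 3.97% of all windows.

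The upper steps of glycolysis, from hexokinase to aldolase, moved little in replicates 3 and 4, with a median log2 fold change of -0.040. Of the 8 enzymes, 0 were higher and 1 lower (0% and 12.5%, against 11% and 9.0% of all genes). This division of the pathway into upper and lower steps was chosen after the values were seen. Pfkp, the platelet-type phosphofructokinase, was at 388, 295 and 289 CPM in shCtrl and 397, 267 and 271 CPM in shCxxc5 replicates 2, 3 and 4. It lay lower in shCxxc5 in replicates 3 and 4 but not in replicate 2, and fell by 0.11 in replicates 3 and 4 (SE 0.04, edgeR adjusted p = 0.0244). That call was lost in DESeq2, with the replicate block (adjusted p = 0.416) and without it, and in edgeR without shCtrl replicate 3, shCxxc5 replicate 3 or shCxxc5 replicate 4. Hk2, the inducible hexokinase, was at 296, 301 and 267 CPM in shCtrl and 213, 271 and 258 CPM in shCxxc5. The shCxxc5 value was the lower in each pair, but the groups overlapped, and the difference in replicates 3 and 4 (-0.10, SE 0.05) passed with the replicate number as a block (edgeR adjusted p = 0.0385) and not without it (0.136). Hk1, Gpi1, Pfkl, Pfkm, Aldoa and Aldoc did not pass, with log2 fold changes between -0.14 and 0.082.

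The lower steps, from Tpi1 to lactate dehydrogenase, had 6 of 8 enzymes higher and 0 lower in replicates 3 and 4, with a median log2 fold change of 0.17. These shares are 75% and 0%, against 11% and 9.0% of all genes. DESeq2 with the replicate block kept the calls of Tpi1 and Ldha alone. In pair 2 the median log2 ratio of the lower steps was -0.051, with 3 of 8 above 0. Ldha, the lactate dehydrogenase subunit that favours lactate, lies on chromosome 7 (46841475 to 46855627, GRCm38). It was at 1675, 1290 and 1337 CPM in shCtrl replicates 2, 3 and 4 and at 1737, 1603 and 1695 CPM in shCxxc5. Each shCxxc5 library was above the shCtrl library of its number, yet shCtrl replicate 2 reached into the shCxxc5 range. The rise in replicates 3 and 4 was 0.33 (SE 0.03, edgeR adjusted p = 9.58e-09). Pgam1, the phosphoglycerate mutase of most tissues (chromosome 19, 41911923 to 41918660), was at 22.7, 21.9 and 20.1 CPM in shCtrl and 23.1, 27.5 and 30.3 CPM in shCxxc5. The groups did not overlap, although pair 2 differed by only 0.021 on the log2 scale. In replicates 3 and 4 Pgam1 rose by 0.45 (SE 0.09, edgeR adjusted p = 0.000312), a call that DESeq2 with the replicate block did not make (adjusted p = 0.102). Of 10 granulocyte and monocyte markers, 3 rose and 3 fell (30% each, against 11% and 9.0% of all genes). Their sums were 1461 and 1463 CPM in shCtrl and 1548 and 1615 CPM in shCxxc5 replicates 3 and 4. Of 6 mast cell and basophil markers, 3 rose and 2 fell (50% and 33.3%), with sums of 295 and 314 against 324 and 312 CPM. The part of these markers in the rise of the lower-step enzymes was not tested.

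Gapdh, glyceraldehyde-3-phosphate dehydrogenase, was at 40.2, 26.6 and 27.8 CPM in shCtrl and at 45.9, 33.1 and 33.6 CPM in shCxxc5. It was the higher in shCxxc5 in every pair and rose by 0.30 in replicates 3 and 4 (SE 0.08, edgeR adjusted p = 0.00475), a call that was lost in DESeq2 and without shCtrl replicate 3 (0.0810). Tpi1, triose phosphate isomerase, was at 1013, 774 and 804 CPM in shCtrl and 1011, 880.3 and 883 CPM in shCxxc5, and rose by 0.17 in replicates 3 and 4 (edgeR adjusted p = 0.000303). Pair 2 showed almost no difference for it. Eno1, the main enolase, was at 215, 135 and 149 CPM in shCtrl and 199, 160.0 and 159.7 CPM in shCxxc5, a rise of 0.18 in replicates 3 and 4 (edgeR adjusted p = 0.00369), lost without shCtrl replicate 3 (0.175) and in DESeq2 with the block (0.220). Pkm, the pyruvate kinase gene outside liver and red cells, was at 2312, 1629 and 1742 CPM in shCtrl and 2051, 1833 and 1813 CPM in shCxxc5. Its rise of 0.12 (edgeR adjusted p = 0.00873) was lost without shCtrl replicate 3 (0.208), without shCxxc5 replicate 3 (0.0984) and in DESeq2 with the block (0.132). In pair 2 Eno1 and Pkm were lower in shCxxc5.

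Pgk1, phosphoglycerate kinase and the next step after Gapdh, did not rise with its neighbours. It was at 80.6, 58.3 and 61.9 CPM in shCtrl and at 75.2, 56.7 and 58.3 CPM in shCxxc5, lower in each pair by less than the range within a group. The difference in replicates 3 and 4 was -0.056 (SE 0.06, edgeR adjusted p = 0.563). Ldhb, the lactate dehydrogenase subunit of oxidative tissues, was at 9.69 to 12.3 CPM in all 6 libraries and did not pass either (-0.16, SE 0.12, edgeR adjusted p = 0.405).

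Several of these enzymes have processed copies elsewhere in the genome, so part of their reads may have been dropped or counted on a copy. The share of 50-base windows of the coding transcripts that occur exactly in another gene's transcripts was 68.0% for Pgk1, 58.4% for Gapdh, 49.5% for Eno1, 41.5% for Pgam1 and 21% for Ldhb. It was 19.0% for Gpi1, 18.4% for Pkm, 10.4% for Ldha, 8.46% for Aldoa and 6.83% for Tpi1. Among the hypoxia genes it was 46.3% for Bnip3 and 24.4% for Bnip3l, and under 2% for each of the others. The counts of the genes with high shares, and the changes read from them, are therefore uncertain. Their levels are not set against those of other genes.

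Levels per kilobase of exon were compared without Pgk1, Gapdh, Eno1, Pgam1, Ldhb, Bnip3 and Bnip3l, whose shares are the highest. Among the rest, the mean in shCtrl was highest for Aldoa (609 CPM per kb), Ldha (433), Pkm (379) and Tpi1 (314), followed by Pfkl (103). The shares of Gpi1 (19.0%) and Pkm (18.4%) leave their places less certain. Aldoa, at 536 to 744 CPM per kb in its 3 libraries, lay above the other genes compared without overlap. Ldha (390 to 506) overlapped with Pkm (326 to 462), Pkm with Tpi1 (281 to 368), and Pfkl (86.0 to 134) with the next gene, Gpi1 (85.3 to 108), so these neighbours are not ordered beyond their spread. The mean of no hypoxia gene compared reached that of Pfkl. Slc2a3 had a mean of 74.7, but 172.7, 26.0 and 25.2 in its 3 libraries, Hif1a had 65.1, Slc16a1 64.0, Vegfa 43.0 and P4ha2 1.2 CPM per kb.

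**Figure D2:**
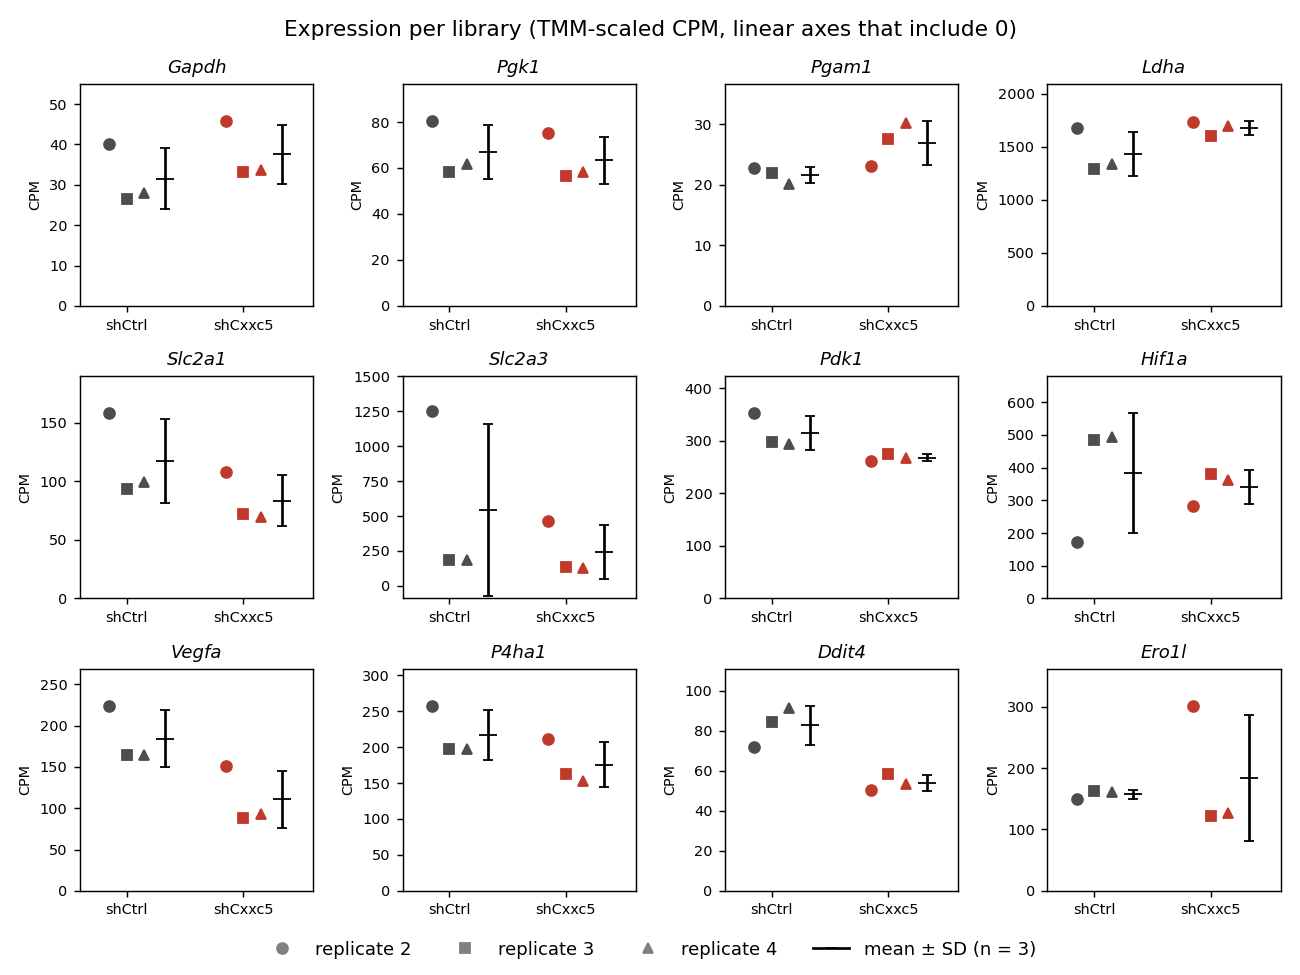
Expression per library (TMM-scaled CPM, y axis, linear and including 0) of 12 named genes in the 3 shCtrl and 3 shCxxc5 libraries (x axis); symbols give the replicate number and bars the mean ± SD of a group (n = 3). Vegfa and Ddit4 lay lower in each shCxxc5 library than in any shCtrl library, while Slc2a3, Hif1a and Ero1l had a replicate 2 library far from its group (1252, 173 and 302 CPM).

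Among the transporters, the glucose carriers fell and a lactate carrier rose in replicates 3 and 4. Slc2a1, which encodes GLUT1 (chromosome 4, 119108711 to 119137983), was at 158, 93.7 and 99.3 CPM in shCtrl replicates 2, 3 and 4 and at 108, 72.1 and 69.8 CPM in shCxxc5. Every pair had the lower value in shCxxc5, with log2 ratios of -0.55, -0.38 and -0.51. The groups overlapped through shCxxc5 replicate 2. The fall in replicates 3 and 4 was -0.43 (SE 0.05, edgeR adjusted p = 2.72e-07).

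Slc2a3, which encodes GLUT3, a carrier also known from platelets (chromosome 6, 122727809 to 122801640), was at 1252, 189 and 183 CPM in shCtrl and at 462, 135 and 129 CPM in shCxxc5. The 2 replicate 2 libraries were the highest, and within each number shCxxc5 was the lower, with log2 ratios of -1.44, -0.48 and -0.50. In replicates 3 and 4 it fell by 0.49 (SE 0.04, edgeR adjusted p = 7.56e-10). Megakaryocyte markers moved with it. Their sum was 7002, 533 and 528 CPM in shCtrl and 1677, 352 and 346 CPM in shCxxc5. In replicates 3 and 4, 5 of the 9 tested fell and 0 rose (55.6% and 0%, against 9.0% and 11% of all genes). Their part in the result was not tested.

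Slc16a1, which encodes the lactate and pyruvate carrier MCT1 (chromosome 3, 104638668 to 104658462), was at 246, 307 and 296 CPM in shCtrl and at 316, 368 and 358 CPM in shCxxc5. All 3 shCxxc5 libraries lay above all 3 shCtrl libraries. The log2 ratios were 0.36, 0.26 and 0.28 in pairs 2, 3 and 4, and the rise in replicates 3 and 4 was 0.27 (SE 0.04, edgeR adjusted p = 1.38e-06). Slc16a3, which encodes the lactate exporter MCT4, was at 349, 126 and 137 CPM in shCtrl and 269, 119 and 122 CPM in shCxxc5, with replicate 2 high in both groups. Its difference in replicates 3 and 4 (-0.11, SE 0.05) passed with the replicate block (edgeR adjusted p = 0.0430) and not without it (0.0786).

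Of the flux regulators, Pdk1, the kinase that shuts pyruvate out of the citric acid cycle, was at 352, 298 and 293 CPM in shCtrl and at 261, 275 and 268 CPM in shCxxc5. The groups did not overlap. It fell by 0.12 in replicates 3 and 4 (SE 0.04, edgeR adjusted p = 0.0200), and the call was lost in DESeq2, with the replicate block (adjusted p = 0.370) and without it, and in edgeR without shCtrl replicate 3, shCxxc5 replicate 3 or shCxxc5 replicate 4. Pfkfb3 and Pfkfb4, which make the activator of phosphofructokinase, did not pass in replicates 3 and 4 (-0.013 and -0.050). Pfkfb4 was at 15.6, 23.9 and 23.7 CPM in shCtrl and at 27.2, 23.3 and 22.4 CPM in shCxxc5, so that the replicate 2 libraries were its lowest and its highest.

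In the oxygen-sensing group, Hif1a, which encodes the oxygen-regulated subunit of HIF (chromosome 12, 73901375 to 73947530), was at 173, 484 and 495 CPM in shCtrl and 282, 380 and 361 CPM in shCxxc5. It was lower with shCxxc5 in pairs 3 and 4 and higher in pair 2, where both libraries lay under the other 4. The fall in replicates 3 and 4 was -0.40 (SE 0.03, edgeR adjusted p = 1.43e-09). Egln3, a prolyl hydroxylase that HIF itself induces, was at 118, 99.4 and 107 CPM in shCtrl and at 80.7, 91.0 and 88.6 CPM in shCxxc5, with no overlap between the groups. It fell by 0.19 in replicates 3 and 4 (SE 0.05, edgeR adjusted p = 0.00552), and the call was lost in DESeq2 and without shCtrl replicate 4 (0.0935) or shCxxc5 replicate 4 (0.0589). Egln1, the main oxygen sensor among these hydroxylases, was at 89.7 to 104 CPM in all libraries and did not pass (-0.083, edgeR adjusted p = 0.252).

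Among the other hypoxia-induced genes, Vegfa, which encodes the vascular growth factor VEGF-A (chromosome 17, 46016993 to 46032369), was at 224, 164.3 and 164.4 CPM in shCtrl replicates 2, 3 and 4 and at 151, 88.2 and 93.2 CPM in shCxxc5. The highest shCxxc5 library lay under the lowest shCtrl library. The log2 ratios in pairs 2, 3 and 4 were -0.57, -0.90 and -0.82, and the fall in replicates 3 and 4 was -0.86 (SE 0.04, edgeR adjusted p = 1.40e-14). Over all 6 libraries it was -0.73 (SE 0.25, edgeR adjusted p = 0.940).

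Ddit4, which encodes the mTORC1 inhibitor REDD1 (chromosome 10, 59949669 to 59951834), was at 72.0, 84.5 and 91.4 CPM in shCtrl and at 50.2, 58.2 and 53.3 CPM in shCxxc5. These groups did not overlap either, and the spread within each was narrow, at 82.6 ± 9.79 against 53.9 ± 4.05 CPM (SD, n = 3). Ddit4 fell by 0.64 in replicates 3 and 4 (SE 0.06, edgeR adjusted p = 1.94e-09). Over all 6 libraries its log2 fold change was -0.62 (SE 0.12, edgeR adjusted p = 0.940).

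P4ha1, a collagen prolyl hydroxylase subunit, was at 258, 196.9 and 197.1 CPM in shCtrl and at 211, 163 and 153 CPM in shCxxc5. It was lower in each pair, with overlap between the groups through shCxxc5 replicate 2, and fell by 0.31 in replicates 3 and 4 (SE 0.04, edgeR adjusted p = 1.66e-06). Its relative P4ha2 was at 7.47 to 8.41 CPM in all libraries and did not pass. Ero1l, an oxidase that forms disulphide bonds in the endoplasmic reticulum (chromosome 14, 45283087 to 45318771), was at 149, 162 and 160.2 CPM in shCtrl and at 302, 122 and 127 CPM in shCxxc5. The replicate 2 library was the highest of all and the other 2 the lowest, and the fall in replicates 3 and 4 was -0.37 (SE 0.04, edgeR adjusted p = 1.42e-07). In that replicate 2 library the summed granulocyte and monocyte markers were at 6132 CPM, and the mast cell and basophil markers at 1384 CPM against 175 to 324 CPM elsewhere. Their part in the Ero1l level was not tested.

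The mitophagy receptors Bnip3 and Bnip3l went opposite ways in replicates 3 and 4. Bnip3 was at 60.0, 61.4 and 67.2 CPM in shCtrl and 69.2, 53.5 and 53.5 CPM in shCxxc5, a fall of -0.25 (SE 0.06, edgeR adjusted p = 0.00265) that was lost without shCtrl replicate 4 (0.0582) and in DESeq2 with the block (0.222). Bnip3l was at 93.7, 76.6 and 77.1 CPM in shCtrl and 82.6, 90.9 and 83.3 CPM in shCxxc5, a rise of 0.19 (SE 0.05, edgeR adjusted p = 0.00929) that was lost in DESeq2 and without shCtrl replicate 3 (0.107) or shCxxc5 replicate 3 (0.271). In pair 2 each had the opposite sign. Bnip3l is also known for clearing mitochondria from maturing red cells. The summed erythroid markers were at 530.1 and 548 CPM in shCtrl and 617 and 585 CPM in shCxxc5 replicates 3 and 4. Tfrc alone made up 410 and 430 CPM of these sums in shCtrl and 522 and 496 CPM in shCxxc5. It was the 1 marker called higher of the 9 tested, and 4 were called lower (11.1% and 44.4%, against 11% and 9.0% of all genes). In each of pairs 3 and 4, 8 of the 9 lay below 0. The part of these markers in the result was not tested. Ankrd37, an ankyrin repeat gene induced by HIF, was at 13.0, 15.6 and 14.8 CPM in shCtrl and at 6.60, 12.8 and 13.7 CPM in shCxxc5, lower in each pair but short of the threshold in replicates 3 and 4 (-0.20, SE 0.11, edgeR adjusted p = 0.190).

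The core enzymes and the hypoxia genes were then compared within replicate numbers. The median log2 ratio of the 16 core enzymes was -0.14, 0.049 and 0.014 in pairs 2, 3 and 4, and that of the 18 hypoxia genes was -0.23, -0.16 and -0.22. The medians over all 14637 genes were -0.038, -0.0086 and -0.0047. Core enzymes with a ratio above 0 numbered 5, 9 and 9 of 16, and hypoxia genes 8, 3 and 3 of 18. Over all genes the number above 0 was 6816, 6935 and 7206 of 14637. In each pair the hypoxia genes thus had the lower median, by the smallest margin in pair 2, where the core median was below 0 too. By sign, pair 2 did not show this order, with 8 of 18 hypoxia genes above 0 against 5 of 16 core enzymes. The 8 of 18 in pair 2, and the 9 of 16 core enzymes in pairs 3 and 4, lie near the shares over all genes. No test was run over the lists.

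**Figure D3:**
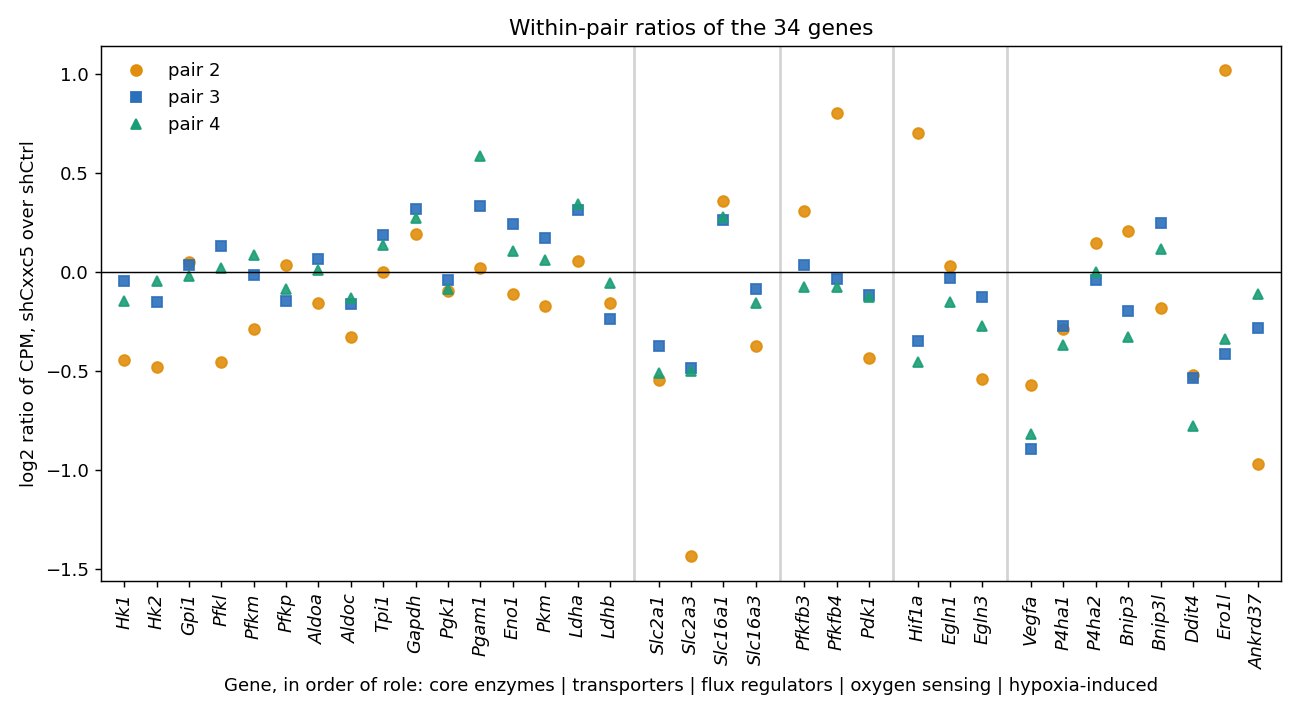
Log2 ratio of shCxxc5 over shCtrl CPM (prior count 2) of each gene within replicate numbers 2, 3 and 4, by role. Pairs 3 and 4 lie close together for most genes. The 3 pairs differ in sign for 16 of the 34 genes. Among these are Hif1a (0.70 in pair 2) and Ero1l (1.02 in pair 2), where pair 2 lies on the other side of 0.

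Across the 3 pairs, 4 members (Gapdh, Pgam1, Ldha and Slc16a1) had the higher value in shCxxc5 each time, and 14 had the lower value each time. Of the 14, 5 were core enzymes and 9 hypoxia genes. Over all genes, 19.0% were higher in all 3 pairs and 22.4% lower. The groups of 3 did not overlap for Pgam1 and Slc16a1 on the higher side, against 6.72% of all genes, and for Pdk1, Egln3, Vegfa and Ddit4 on the lower side, against 6.35%.

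The effect in pair 2 is set beside that in pairs 3 and 4 as values without a test, since replicate 2 has 1 library per group. The difference of log2 fold changes, pair 2 minus pairs 3 and 4, was 1.40 for Ero1l, 1.10 for Hif1a, 0.86 for Pfkfb4 and -0.94 for Slc2a3. Next in size were Ankrd37 (-0.77), Pfkl (-0.53), Bnip3 (0.46) and Pgam1 (-0.43). Eno1 and Pkm each had -0.29. For Slc2a1 it was -0.11, for Slc16a1 0.091, for P4ha1 0.031 and for Ddit4 0.13. For Ldha it was -0.28 and for Vegfa 0.29, with the sign of the effect kept in each pair.

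Regardless of the hairpin, 14 members were higher and 2 lower in replicate 2 than in replicates 3 and 4 (edgeR), against 17.7% and 18.7% of all genes. Slc2a3 had the largest difference among members, 2.31 on the log2 scale (edgeR adjusted p = 0.000521), followed by Slc16a3 with 1.28 (0.000112). Hif1a (-0.91, adjusted p = 0.0287) and Slc16a1 (-0.25, 0.0136) were the lower ones. Glycolytic enzymes from hexokinase to pyruvate kinase were among the higher ones, such as Hk1 (0.55), Gapdh (0.51), Pfkp (0.49) and Eno1 (0.46). These 2 libraries are also those with 33.1 and 46.4 CPM of Ly6a and the highest megakaryocyte marker sums, and the part of these differences in the result was not tested.

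Other genes of the pathway were read from lists beside the members. Of 28 other glycolytic and branch enzymes tested, 3 rose and 2 fell in replicates 3 and 4, with a median of 0.054. These shares, 10.7% and 7.14%, are near those over all genes, 11% and 9.0%. Pgd, of the pentose phosphate branch, rose by 0.34 (edgeR adjusted p = 1.35e-06) and was at 122, 122 and 123 CPM in shCtrl and 188, 150 and 159 CPM in shCxxc5, with no overlap. Pgm2l1, a glucose-1,6-bisphosphate synthase, rose by 0.19 (0.00978), and Eno2, the neuronal enolase, fell by 0.70 (5.09e-05) from 14.9 and 17.1 to 9.63 and 9.88 CPM.

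Of 13 tested genes for the entry of pyruvate into mitochondria, 2 rose and 1 fell (15.4% and 7.69%, against 11% and 9.0% of all genes). Pdp2, the phosphatase that reverses the action of Pdk1 on pyruvate dehydrogenase, was at 29.2, 36.3 and 37.5 CPM in shCtrl and 43.3, 60.9 and 59.8 CPM in shCxxc5. The groups did not overlap, and the rise in replicates 3 and 4 was 0.72 (SE 0.06, edgeR adjusted p = 1.43e-09). Pdhx, a structural subunit of that complex, rose by 0.18 (0.0469), and Pcx, pyruvate carboxylase, fell by 0.49 (0.00277).

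Of 12 tested genes of the HIF machinery, 2 rose and 0 fell (16.7% and 0%, against 11% and 9.0% of all genes). Hif1an, the asparaginyl hydroxylase that limits HIF activity, rose by 0.23 (edgeR adjusted p = 0.0116), and Rbx1, of the ligase that degrades HIF, rose by 0.22 (0.00595). Eloc, of the same ligase, did not pass (0.11, 0.151). Of 33 other HIF targets tested, 5 rose (15.2%) and 8 fell (24.2%), with a median of -0.096. Stc2, a secreted glycoprotein, fell by 0.73 (6.38e-09) and Ndrg1, a stress-induced gene, fell by 0.45 (2.30e-06). Tfrc, the transferrin receptor and also an erythroid marker, rose by 0.28 (7.07e-07).

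All 16 ATF4-dependent genes tested fell in replicates 3 and 4, by 0.22 to 2.29 on the log2 scale with a median of -1.01. That is 100%, against 9.0% of all genes, for a list fixed with earlier results of these data known. ATF4 is a transcription factor of amino acid and endoplasmic reticulum stress, and Vegfa, Ddit4 and Stc2 are known targets of it as well as of HIF. Asns, asparagine synthetase, was at 454, 276 and 272 CPM in shCtrl and 375, 107 and 104 CPM in shCxxc5. It fell by 1.38 (SE 0.04, edgeR adjusted p = 5.22e-20). Trib3, a pseudokinase induced by ATF4, fell by 1.76 (3.08e-17), and Mthfd2, of mitochondrial folate metabolism, had a log2 fold change of -1.003 (3.08e-17). The list's median was -0.30, -1.01 and -1.01 in pairs 2, 3 and 4. In pair 2, 5 of the 16 lay above 0, Atf4 among them (0.077). The part of this set of genes in the falls of Vegfa and Ddit4 was not tested.

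**Figure D4:**
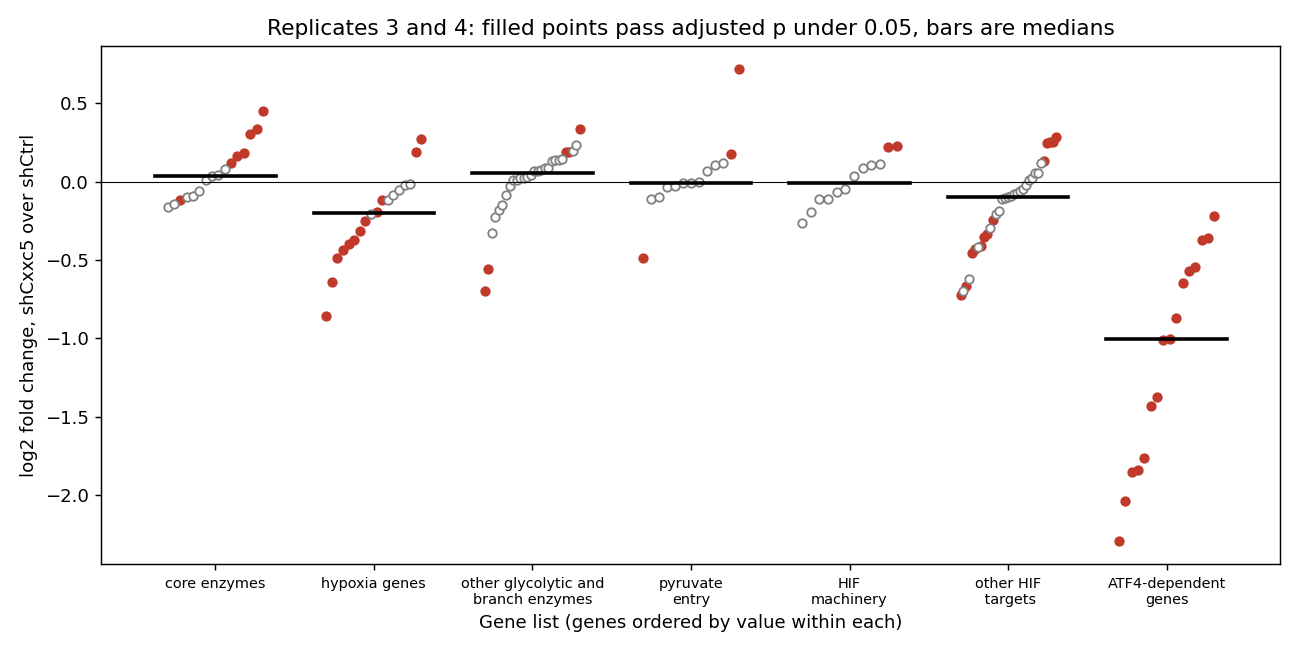
Log2 fold change (shCxxc5 over shCtrl, y axis) in replicates 3 and 4 of every tested gene of the core enzymes, the hypoxia genes and the other lists (x axis, genes ordered by value within a list); filled points passed an adjusted p of 0.05 and bars are list medians. The medians are 0.038 for core enzymes, -0.20 for hypoxia genes and -1.01 for ATF4-dependent genes, whose points all lie under 0.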

How the data were processed

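RNA was sequenced from LSK cells in 6 libraries, 3 per group. Raw read counts per gene were deposited by the authors. STAR 2.5.2b, featureCounts 1.5.1, DESeq2 and the build GRCm38 are named per the submitters' processing notes. The sources used here give neither the strand setting nor the annotation release. Exons of Pfkp, Gpi1, Bnip3, Ankrd37, Hif1a, Hk1 and Slc2a1 overlap genes on the other strand by over 100 bases, and those of Pkm and Pfkm overlap genes on the same strand, so such reads could not be told apart. GENCODE M21 gave symbols for 49412 of 49671 identifiers, and the other 259 held 0.0557% of counts. The counts carry no molecular identifiers. The members, the lists and the tests were chosen with earlier results of these data known.

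The test was edgeR's robust quasi-likelihood test (version 4.0.16, R 4.3.3; TMM, filterByExpr, group as the only term, Benjamini-Hochberg over all genes tested, threshold 0.05), over all 6 libraries and over replicates 3 and 4. SE is the size of the log2 fold change over the root of the F statistic. Ratios within a replicate number use log2 CPM with a prior count of 2. Exact copies were searched in windows of 50 bases. Values per library are printed for members called with an absolute log2 fold change of at least 0.3, for members whose 3 pair ratios reach that size on the same side, for Gapdh, Ldha, Pgk1, Slc2a1, Hif1a, Vegfa and Pdk1, and for members described beyond a count. The 3 genes of smallest p per pathway list are named. Alternatives were DESeq2 1.42.0, limma-voom (limma 3.58.1), other scalings and filters, the replicate block and leaving out each library. The code was tested on simulated counts.

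Replicate numbers 2, 3 and 4 occur in both groups without a stated meaning. The numbers were taken as pairs by label alone. Deviations from the group means correlated at 0.670, 0.554 and 0.489 between libraries of the same number. The deviations of a group sum to 0 for each gene, and replicate 2 stands apart in both groups. These values thus show that the replicate 2 libraries deviate alike, but not whether 3 belongs with 3 and 4 with 4. Libraries 3 and 4 correlated nearly as well across numbers, at 0.489 and 0.475.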

Additional observations from a re-analysis of the deposited data

How the results depend on the processing

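In replicates 3 and 4, Tpi1, Ldha, Slc2a1, Slc2a3, Slc16a1, Hif1a, Vegfa, P4ha1, Ddit4 and Ero1l kept their direction and call under all 14 alternatives. The values of single members under DESeq2 with the block were added after seeing the data. DESeq2 called 1353 genes there and DESeq2 with the replicate block 601 genes and 10 members, against 2833 and 19 with edgeR. DESeq2 lost the calls of Pfkp, Gapdh, Pdk1, Egln3 and Bnip3l, and with the block also those of Pgam1, Eno1, Pkm and Bnip3 (adjusted p 0.102 to 0.222). Leaving out 1 library, which leaves a group with a lone library assumed to vary like the other group, gave 1507 to 2043 genes and 14 to 18 members. With library totals alone the core median was 0.011 in place of 0.038. With the replicate block, edgeR called 3300 genes and 21 members, adding Hk2 and Slc16a3, and in edgeR the block changed no other member's call. Over all 6 libraries edgeR with the block gave 0 calls as well. There DESeq2 called 19 genes and 1 member, and DESeq2 with the block 147 genes and 4 members. The hypoxia median, -0.20, was -0.15 with limma-voom and -0.16 with the block. Leaving out 1 library put it at -0.22 to -0.12 and the core median at -0.11 to 0.12. It reversed, over all 6 libraries, Pfkp (-0.27 to 0.095), Pgk1 (-0.22 to 0.079), Slc2a3 (-2.03 to 0.38), Eno1 (-0.067 to 0.28), Pkm (-0.087 to 0.17), Hif1a (-0.52 to 0.061) and Ero1l (-0.34 to 0.45). Slc2a3 reversed without shCtrl replicate 2 and Ero1l without shCxxc5 replicate 2. Pkm was 0.0034 over all 6 libraries, -0.0014 with library totals alone and -0.00083 with a filter of CPM of at least 1. The causes were not tested. Replicate 2 has 1 library per group, so its pair alone gives no test. Counts of near-copied genes such as Pgk1 and Gapdh limit what their levels and changes show.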
